A study of Mus musculus with 6 samples.

Results

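The cells described here were T cells of the mouse liver in which no transcript of either CD8 chain was read. They were chosen on their own measured values. A cell was taken when at least 2 of the 4 genes Cd3d, Cd3e, Cd3g and Trac were above 0 and when Cd8a and Cd8b1 were both at 0. Ncr1, Clec4f, C1qa, Cd79a and Siglech, which mark NK cells, Kupffer cells, macrophages, B cells and plasmacytoid dendritic cells, also had to be at 0. The rule found 957 of 11610 cells (8.24%), and 184 further cells met it except that they held a UMI of Cd8a or Cd8b1 (called CD8 T cells below). A UMI is a molecular barcode that counts 1 RNA molecule. CD8-negative is thus a statement about the reads, not about the protein on the cell surface.

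Single-cell RNA sequencing had been run on the livers of 3 wild-type and 3 SIRT7-/- mice (genotype label SIRT7 KO) aged 5 to 6 months, with no treatment named in the labels. SIRT7 is a histone deacetylase, and mice without it are the study's model of fatty liver disease on a chow diet. The labels name no cell type to which the loss of SIRT7 was limited. Each library came from 1 mouse and was loaded with 3000 hepatocytes and 3000 non-parenchymal cells, so the share of a cell type in a library is not its share of the liver. The shares did not follow the mixture either. Cells that met a marker rule for hepatocytes were 848 of 1243, 591 of 933 and 162 of 1094 in wild-type mice 1 to 3. In SIRT7-/- mice 1 to 3 they were 912 of 5609, 240 of 2179 and 327 of 552. The genotypes were compared to ask how the transcripts of these T cells differed between mice with and without SIRT7, with the mouse as the replicate in every test.

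A T cell recognises antigen through a receptor of paired alpha and beta or gamma and delta chains, which signals through the CD3 chains, and most alpha beta T cells carry either CD4 or CD8 beside it. The liver is rich in T cells without CD8. Among them are CD4 helper and regulatory cells, gamma delta T cells, and natural killer T cells (NKT cells), which sense lipids and share receptors such as NK1.1 with NK cells. Many of them stay in the sinusoids, where the chemokine receptor CXCR6 meets its ligand CXCL16.

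The wild-type mice 1, 2 and 3 gave 170, 114 and 139 CD8-negative T cells, and the SIRT7-/- mice 1, 2 and 3 gave 225, 296 and 13. These cells were 13.7%, 12.2% and 12.7% of the wild-type libraries and 4.01%, 13.6% and 2.36% of the SIRT7-/- libraries. SIRT7-/- mouse 3 stood apart by its small number of cells, and its values are given beside the others but entered a fit only where stated. Of 1571 cells with at least 2 of the 4 genes, 430 held a UMI of a gene of another lineage and were left out by the rule, 191 of them in SIRT7-/- mouse 1 and 177 in SIRT7-/- mouse 2. Across libraries 26 cells shared a barcode, 4 of them CD8-negative T cells.

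The depth of the cells was uneven. The libraries held between 2511947 and 11069411 UMIs, and the median CD8-negative T cell held 2777.5, 2681.5 and 1160 UMIs in wild-type mice 1 to 3 and 1251, 2008 and 3563 UMIs in SIRT7-/- mice 1 to 3. Wild-type mouse 3 and SIRT7-/- mouse 1 were therefore the shallow members of their groups. In these mice 59.0% and 68.9% of the cells passed with exactly 2 of the 4 genes, against 10.6%, 10.5%, 39.9% and 15.4% in the others. A cell of low depth can also pass because a CD8 transcript was missed. When the 171 CD8 T cells with enough depth were thinned to 1000 UMIs each, 59 of them (34.5%, 95% Wilson interval 27.8 to 41.9%) kept no CD8 UMI, and 30 of these still met the rule.

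The levels of the 4 selecting genes are given as a description. All levels are mean CP10K, the UMIs of a gene per 10000 UMIs of a cell, averaged over the cells of a mouse. Cd3d lay between 8.57 and 10.6 CP10K over the 6 mice, Cd3e between 4.80 and 9.64, Cd3g between 5.44 and 9.62 and Trac between 2.90 and 4.22. Trbc2, a constant segment of the receptor's beta chain that the rule did not use, was 14.1, 13.4 and 8.30 CP10K in the wild-type livers and 9.22, 12.5 and 16.3 CP10K in the SIRT7-/- livers. Its mean over mice was 0.0731 CP10K in B cells (572 cells with Cd79a), 0.0691 in Kupffer cells (2914 cells with Clec4f and C1qa) and 0.157 in hepatocytes (3080 cells). In NK cells, the nearest lineage, it lay between 1.50 and 6.30 CP10K, below the CD8-negative T cells. Lck, the kinase that starts receptor signaling, lay between 1.82 and 3.24 CP10K and overlapped its range in NK cells, 0.797 to 2.45 CP10K. The label of T cell was therefore met in every mouse by Trbc2, while Lck set these cells apart from B cells, Kupffer cells and hepatocytes but not from NK cells. Reads of Trbc2 and of its near-identical copy Trbc1, which lay between 3.08 and 9.61 CP10K, may have been split between them.

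Cells at the edge of the rule were less clear in values pooled over the cells of all mice. Trbc2 was 14.8, 11.7 and 9.67 CP10K in CD8-negative T cells with 4, 3 and 2 of the 4 genes, 8.38 CP10K in the 347 cells just outside the rule with 1 gene, and 5.33 CP10K in the 373 cells without CD8 UMIs left out for another lineage's gene. Cxcr6 ran the same way, at 9.07, 7.73, 6.57, 5.74 and 3.51 CP10K. Cd74, which belongs to antigen-presenting cells, ran the other way, at 7.01, 12, 15.2, 14.6 and 51.3 CP10K. The median depth of the 3 kinds of CD8-negative T cell was 2761, 2334 and 1359 UMIs, so the number of genes seen moved with depth.

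Defining genes of other cell types were then read in the CD8-negative T cells. The rule set C1qa, Clec4f, Cd79a, Siglech and Ncr1 to 0, and Prss34 and Mcpt8 of basophils were also at 0 in every mouse. The summed level of 12 hepatocyte genes was 274, 218 and 159 CP10K in the wild-type livers and 225, 54.7 and 116 CP10K in the SIRT7-/- livers. The 6 neutrophil genes summed to 0.0922, 0.145 and 0.266 CP10K in the wild-type livers and to 71.9, 9.98 and 0.182 CP10K in the SIRT7-/- livers. B and plasma cell genes summed to 61.1 CP10K in wild-type mouse 3 and 72.6 CP10K in SIRT7-/- mouse 1, the 2 shallow mice, and to between 0.675 and 2.87 CP10K in the others. Dendritic cell genes summed to 3.62, 7.54 and 44.3 CP10K in the wild-type livers and to 37.9, 39.6 and 63.5 CP10K in the SIRT7-/- livers, and all 8 tested were higher in the fit over 5 mice described next (median log2 fold change 1.80, none called). Kupffer cell and macrophage genes summed to 0.199, 1.05 and 6.33 CP10K and to 10.9, 4.23 and 0.799 CP10K, with 7 of 7 tested higher (median 1.49, none called). Endothelial genes lay between 0.315 and 6.05 CP10K and NK cell genes between 2.43 and 4.35. What part these sums had in the comparisons of the genotypes was not tested. Red blood cell genes summed to 29.4 CP10K in wild-type mouse 1 and to at most 0.244 CP10K elsewhere.

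Subset markers showed a mixed population led by Cxcr6. To compare cells of unlike depth, cells with at least 1000 UMIs (824 of the 957) were thinned to 1000 UMIs each. Cxcr6 was then seen in 42.4% of CD8-negative T cells and in 17.5% of CD8 T cells, against a background of 1.33% of B cells and 0.734% of Kupffer cells, which should lack it. Klrb1c, which encodes NK1.1, was seen in 10.4%, against 2.92% of CD8 T cells, 1.14% of B cells and 0.660% of Kupffer cells. Cd4 was seen in 8.74%, against 5.26% of CD8 T cells, Zbtb16, which encodes the NKT cell factor PLZF, in 2.31%, Trdc, the constant segment of the delta chain, in 2.67%, and Foxp3, the factor of regulatory T cells, in 1.09%. Each of these 4 was at most 0.77% in B cells and in Kupffer cells. Ccr7, a homing receptor that B cells carry too, was seen in 2.67% of CD8-negative T cells, 3.04% of B cells and 0.147% of Kupffer cells. Median depths before thinning were 2063 UMIs in CD8-negative T cells, 2326.5 in CD8 T cells, 3290 in B cells and 2263 in Kupffer cells, and intervals on such shares cover counting error only.

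**Figure D1:**
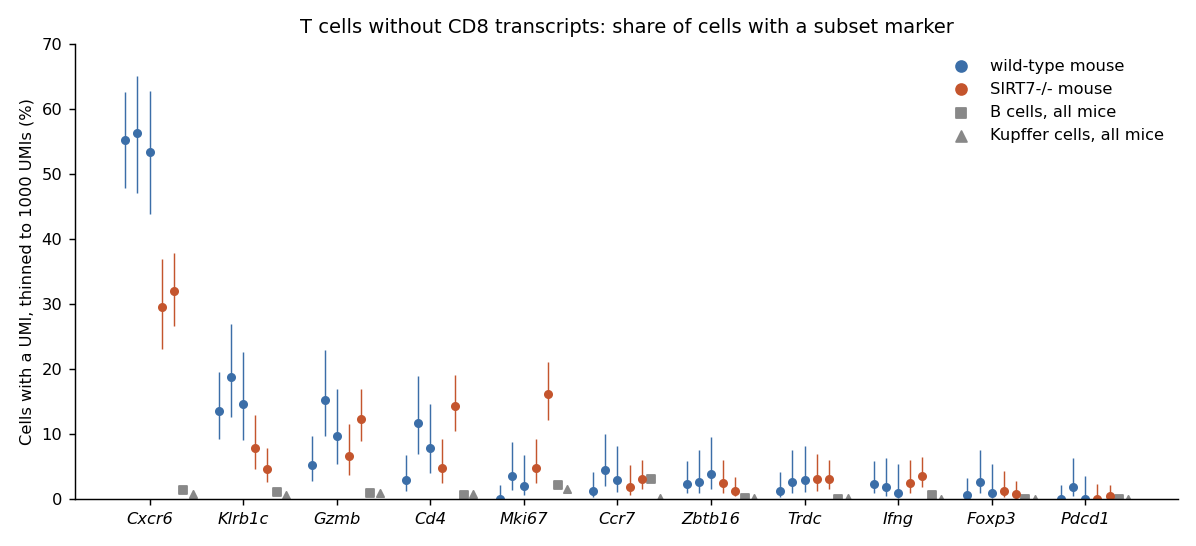
Percent of CD8-negative T cells with a UMI of each of the subset markers named below the axis after thinning every cell to 1000 UMIs, by mouse (blue wild-type, orange SIRT7-/- mice 1 and 2; bars are 95% Wilson intervals), with the shares in B cells (grey squares) and Kupffer cells (grey triangles) as background. Cxcr6 stands at 55.3, 56.3 and 53.4% in the wild-type livers and 29.5 and 31.9% in the SIRT7-/- mice, far above its background, while Ccr7 lies near its share in B cells, which carry it too, and above that in Kupffer cells.

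In the same thinned cells Cxcr6 was detected in 55.3%, 56.3% and 53.4% of the CD8-negative T cells of wild-type mice 1 to 3. The shares in SIRT7-/- mice 1 and 2 were 29.5% and 31.9%, and 5 of the 13 cells of SIRT7-/- mouse 3 (38.5%) held a UMI. The groups did not overlap. The mean was 55% ± 1.45 (SD, n = 3) in wild-type and 30.7% ± 1.70 (SD, n = 2) in SIRT7-/- mice, and the exact permutation test gave p = 0.2, the smallest that 3 mice against 2 allow (adjusted p = 0.433 over 13 markers). Before thinning the shares were 86.5%, 84.2% and 70.5% in the wild-type livers and 41.3%, 50.3% and 76.9% in the SIRT7-/- mice. Klrb1c was detected in 13.5%, 18.8% and 14.6% of thinned cells in the wild-type livers and in 7.83% and 4.62% in SIRT7-/- mice 1 and 2, a mean of 15.6% ± 2.76 against 6.22% ± 2.27. In SIRT7-/- mouse 3 it was 15.4%, which is 2 of 13 cells. Mki67, a marker of dividing cells, was seen in 0%, 3.57% and 1.94% of cells in wild-type mice 1 to 3, in 4.82% and 16.2% in SIRT7-/- mice 1 and 2 and in 0 of 13 cells in SIRT7-/- mouse 3. The means were 1.84% ± 1.79 and 10.5% ± 8.01, and their difference of 8.65 points ran from 2.98 points when SIRT7-/- mouse 2 was left out to 14.3 when SIRT7-/- mouse 1 was. Ifng and Trdc also did not overlap between the 5 mice, each at exact p = 0.2, and Cd4, Foxp3, Zbtb16, Ccr7, Gzmb and Pdcd1 overlapped, with Cd4 at 7.44% ± 4.34 and 9.53% ± 6.65.

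Among T cells with the rule's 5 genes of other lineages at 0, the share without a CD8 UMI was lower in each SIRT7-/- mouse than in any wild-type mouse. This was at the smallest p that 6 mice can give, but it did not hold without those 5 genes. CD8-negative cells made up 89.9%, 88.4% and 92.1% of the T cells of wild-type mice 1 to 3 and 88.2%, 74.4% and 68.4% of those of SIRT7-/- mice 1 to 3. The highest SIRT7-/- mouse lay just below the lowest wild-type mouse. The means were 90.1% ± 1.85 and 77.0% ± 10.2 (SD, n = 3 each), a difference of -13.1 percentage points (two-sided exact permutation p = 0.1, the smallest that 3 mice against 3 allow). After thinning to 1000 UMIs the shares were 91.3%, 94.4% and 94.8% against 90.1%, 80.6% and 75.0%, a difference of -11.6 points (exact p = 0.1). With cells over 3 times the median depth left out, the difference was -13.7 points and the groups overlapped (exact p = 0.2). Without the 5 genes of other lineages the groups overlapped too. CD8-negative cells were then 396 of 446 T cells in SIRT7-/- mouse 1, a slightly higher share than 117 of 132 in wild-type mouse 2. The share rests on the same CD8 reads that define the cells.

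**Figure D2:**
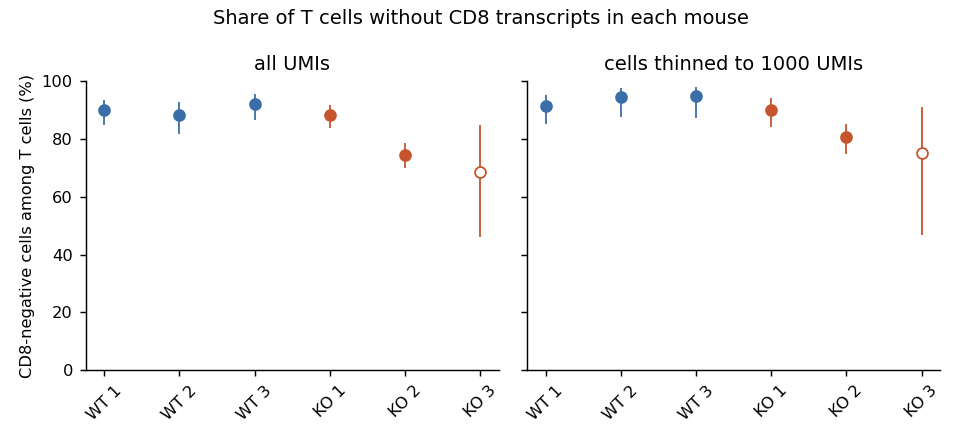
Percent of T cells without a CD8 UMI in each mouse, with all UMIs and after thinning to 1000 UMIs; points are mice and bars are 95% Wilson intervals. SIRT7-/- mice 2 and 3 lie lowest in both panels, at 74.4 and 68.4% with all UMIs, while SIRT7-/- mouse 1 lies beside the wild-type mice.

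The genotypes were then compared gene by gene over wild-type mice 1 to 3 and SIRT7-/- mice 1 and 2, on log2(mean CP10K + 0.05), with limma. Of 10131 genes tested, 28 passed an adjusted p of 0.05 (0.276%), 13 higher (0.128%) and 15 lower (0.148%) in SIRT7-/- mice, and 731 had an unadjusted p under 0.05. Fewer were called by limma without trend and robust (9) and none by limma voom on summed UMIs (0, with 912 at an unadjusted p under 0.05), and means of the deposited ln values gave 124. Fold changes on this scale understate the change of low genes. The targeted gene was among them. Sirt7 was 0.706, 0.881 and 0.599 CP10K in the wild-type livers and 0.0843, 0.0529 and 0.295 CP10K in the SIRT7-/- livers, the last from 13 cells. It was lower in all 3 SIRT7-/- mice without reaching 0, with a log2 fold change of -2.71 (SE 0.42, limma adjusted p = 0.00605) over the 5 mice and of -2.57 (limma adjusted p = 0.054) without wild-type mouse 2. With SIRT7-/- mouse 3 added, 5 of 10094 genes passed (0.0495%), Ccl5, BC018473 and St6galnac2 higher (0.0297%) and Cyp2c50 and Pcyt2 lower (0.0198%). Over all genes tested, every SIRT7-/- mouse lay above every wild-type mouse in 4.18% and below in 6.27%. Leaving out 1 of the 5 mice gave 15 calls without wild-type mouse 1, 18 without wild-type mouse 2 and 230 without SIRT7-/- mouse 1, and the 28 genes kept their direction each time.

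Genes of T and NK cell biology called lower in SIRT7-/- mice were Cxcr6, Klrb1c, Txk and Tcrg-C2. Cxcr6, the sinusoidal homing receptor, lies at chr9:123806475-123811760 on the plus strand (GRCm38). Its level was 9.46, 12.4 and 10.5 CP10K in wild-type mice 1 to 3 and 4.32, 5.70 and 7.81 CP10K in SIRT7-/- mice 1 to 3. All 3 SIRT7-/- mice lay below all 3 wild-type mice. Over the 5 mice the means were 10.8 ± 1.49 (SD, n = 3) and 5.01 ± 0.972 CP10K (SD, n = 2), with a log2 fold change of -1.10 (SE 0.22, limma adjusted p = 0.0427). With SIRT7-/- mouse 3 added the value was -0.89 (SE 0.24, limma adjusted p = 0.446). Over 25 alternatives the adjusted p ran from 0.00944 to 0.786, and leaving out wild-type mouse 1, 2 or 3 or SIRT7-/- mouse 1 gave 0.148, 0.393, 0.111 and 0.0509.

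Klrb1c encodes the NK1.1 receptor, at chr6:128778485-128789215 on the minus strand. It was 1.85, 1.39 and 2.20 CP10K in the wild-type livers and 0.539, 0.523 and 0.531 CP10K in the SIRT7-/- livers. The 3 SIRT7-/- mice were alike and all below the wild-type mice, at a mean of 0.531 ± 0.0114 CP10K over mice 1 and 2 against 1.81 ± 0.407. The log2 fold change was -1.66 (SE 0.33, limma adjusted p = 0.0359), and -1.66 with adjusted p = 0.135 over 6 mice (limma). NK cells, in which the mean was 6.73 CP10K, were kept out by the rule only where Ncr1 was read. The NK cell sum given above overlapped between the genotypes. It includes Klrb1c itself, called lower, and Gzma, called higher, so it cannot show how many NK cells were present. What part NK cells had in the level of Klrb1c was not tested. Over the alternatives the adjusted p ran from 0.0134 to 0.825, and it was over 0.05 when wild-type mouse 1, 2 or 3 or SIRT7-/- mouse 2 was left out, at 0.163, 0.0967, 0.128 and 0.0901.

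Txk is a kinase of the Tec family that acts downstream of the T cell receptor, at chr5:72695978-72752777 on the minus strand. Its level was 4.02, 3.57 and 3.70 CP10K in the wild-type livers and 1.57, 1.25 and 2.14 CP10K in the SIRT7-/- livers, again without overlap. The log2 fold change was -1.39 (SE 0.27, limma adjusted p = 0.0298), and -1.19 with adjusted p = 0.284 over 6 mice (limma). Tcrg-C2, a constant segment of the gamma chain, was 1.70, 1.44 and 1.35 CP10K in the wild-type livers and 0.425, 0.362 and 1.22 CP10K in the SIRT7-/- livers. SIRT7-/- mouse 3 lay close to the wild-type range. Its log2 fold change was -1.80 (SE 0.33, limma adjusted p = 0.0235) over 5 mice and -1.29 with adjusted p = 0.717 over 6 mice (limma). The adjusted p of both genes was over 0.05 when any wild-type mouse or SIRT7-/- mouse 2 was left out, between 0.0804 and 0.191 for Txk and between 0.0535 and 0.142 for Tcrg-C2. Tcrg-C1, a near-identical copy that may share its reads, and Tcrg-C4, a further gamma constant segment, did not pass. Their log2 fold changes were -0.99 and -0.94 (limma adjusted p = 0.461 and 0.561).

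**Figure D3:**
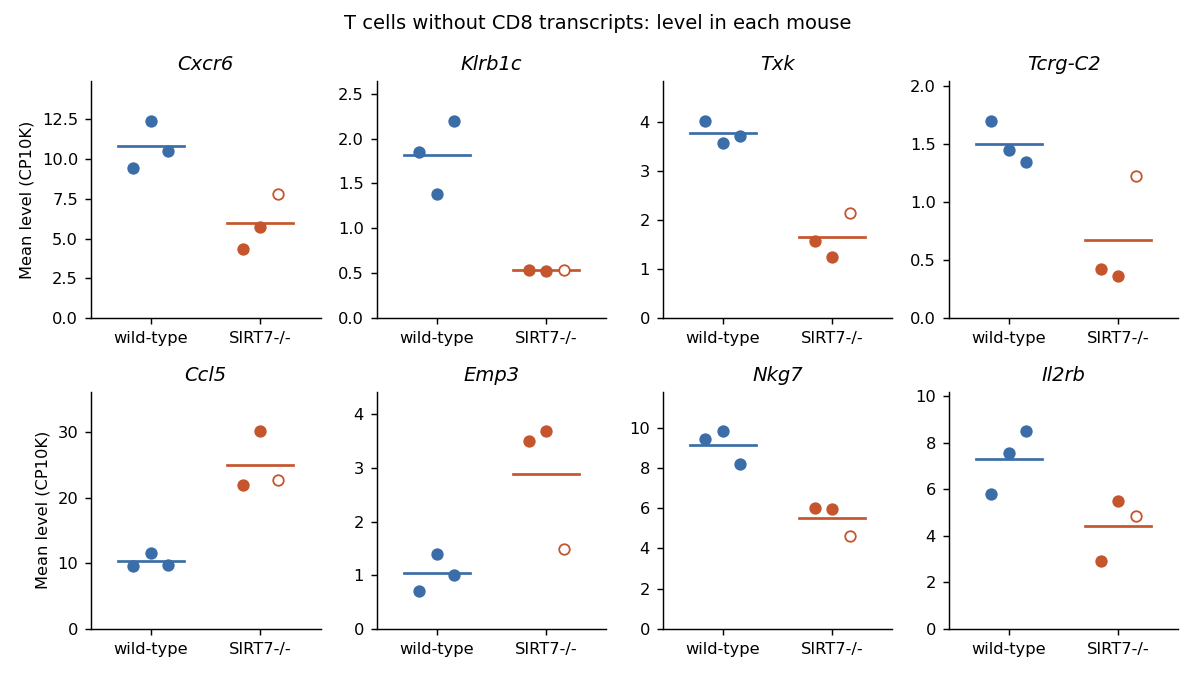
Mean CP10K of 8 genes in the CD8-negative T cells of each mouse, in wild-type (blue) and SIRT7-/- mice (orange); the open circle is SIRT7-/- mouse 3, which did not enter the 5-mouse fit, and lines are means over 3 mice. Cxcr6, Klrb1c, Txk and Tcrg-C2 are lower in every SIRT7-/- mouse and Ccl5 and Emp3 higher, while Nkg7 and Il2rb are lower without passing the test.

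The 300 bases around the start of these genes are shown because Cxcr6, Klrb1c and Txk were called lower together. The windows run from 250 bases before to 50 bases after the RefSeq start in build GRCm38.p6, read 5′ to 3′ on the gene's strand. Capitals mark the RUNX core TGTGGT or its reverse complement ACCACA, a motif of factors that act in T and NK cells. It was found by searching 7 short motifs on both strands with the values known, and it is a match of letters, not a site.
Cxcr6 (chr9:123806227-123806526, plus strand): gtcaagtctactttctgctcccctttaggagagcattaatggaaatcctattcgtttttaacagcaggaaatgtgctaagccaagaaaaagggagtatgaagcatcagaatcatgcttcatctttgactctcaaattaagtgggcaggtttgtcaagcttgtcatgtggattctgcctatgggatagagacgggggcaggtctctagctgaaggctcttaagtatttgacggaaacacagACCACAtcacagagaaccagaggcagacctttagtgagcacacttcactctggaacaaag
Klrb1c (chr6:128788592-128788891, minus strand): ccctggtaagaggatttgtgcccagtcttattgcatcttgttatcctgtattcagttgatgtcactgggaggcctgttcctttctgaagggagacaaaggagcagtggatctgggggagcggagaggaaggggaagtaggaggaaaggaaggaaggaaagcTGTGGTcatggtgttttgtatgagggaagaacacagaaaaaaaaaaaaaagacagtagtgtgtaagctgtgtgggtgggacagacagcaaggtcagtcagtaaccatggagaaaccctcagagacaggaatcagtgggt
Txk, outer start (chr5:72752728-72753027, minus strand): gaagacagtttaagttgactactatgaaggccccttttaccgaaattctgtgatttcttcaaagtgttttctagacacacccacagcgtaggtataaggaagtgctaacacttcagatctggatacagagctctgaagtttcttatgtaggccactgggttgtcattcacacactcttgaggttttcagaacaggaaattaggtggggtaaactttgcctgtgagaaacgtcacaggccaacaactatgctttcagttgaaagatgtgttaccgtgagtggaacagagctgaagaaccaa
The core lies 10 bases before the Cxcr6 start and 89 bases before the Klrb1c start, and the outer Txk window holds none. The window of the inner Txk start (chr5:72736553-72736852) holds it 20 bases before the start. The same core occurs in 16.8% of 32851 such windows.

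The share of cells with a Cxcr6 UMI, given above, differed between the genotypes, and the level within such cells overlapped. Among cells with a Cxcr6 UMI, of which the wild-type mice had 147, 96 and 98 and the SIRT7-/- mice 93, 149 and 10, the level was 10.9, 14.7 and 14.9 CP10K against 10.5, 11.3 and 10.2 CP10K. The log2 fold change there was -0.30 (limma adjusted p = 0.786). Having a Cxcr6 UMI chose these cells, so the value is bounded from below by that choice. Within the same cells Tcrg-C2 was still lower in SIRT7-/- mice (log2 fold change -1.89, limma adjusted p = 0.0238). Klrb1c (-1.35) and Txk (-1.08) did not pass there (limma adjusted p = 0.0962 and 0.113), although Klrb1c stayed apart, at 2.03, 1.65 and 2.11 against 0.730, 0.710 and 0.690 CP10K. In cells without a Cxcr6 UMI (23, 18 and 41 against 132, 147 and 3 cells) no gene passed over the 4 mice with enough cells.

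Among thinned cells Txk was more frequent in those with a Cxcr6 UMI than in those without in every mouse. Txk was seen in 36.2%, 33.3% and 36.4% of Cxcr6-positive and 31.6%, 22.4% and 22.9% of Cxcr6-negative cells of the wild-type mice. In the SIRT7-/- mice the shares were 20.4% and 21.7% against 7.69% and 7.34% in mice 1 and 2, and 1 of 5 against 1 of 8 cells in mouse 3. Klrb1c was likewise more frequent with Cxcr6 in all 6 mice, at 17%, 23.8% and 18.2% against 9.21%, 12.2% and 10.4% in the wild-type mice. Foxp3 was seen in 0 of 349 thinned Cxcr6-positive cells, which allows up to 0.860% of cells with a UMI at 1000 UMIs and sets no limit on cells that express it.

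Other receptors of NKT and innate-like T cells gave a partial picture. Of 12 tested genes of this list 8 were lower and 4 higher in SIRT7-/- mice, 2 of them called (Cxcr6 and Klrb1c, both lower), with a median log2 fold change of -0.54 against -0.01 over all genes. In 6 of the 12 both SIRT7-/- mice lay below all wild-type mice, against 11.4% of all genes. The summed level of the list was 31.4, 34.3 and 34.7 CP10K in the wild-type livers and 18.5, 23.2 and 29.6 CP10K in the SIRT7-/- livers. Il2rb, the beta chain of the interleukin 2 and 15 receptors, was 5.81, 7.56 and 8.49 against 2.93, 5.49 and 4.84 CP10K and did not pass (log2 fold change -0.84, limma adjusted p = 0.353). Zbtb16 was 0.347, 0.418 and 0.333 against 0.284, 0.159 and 1.01 CP10K. Of the 6 gamma delta genes tested 3 were lower and 3 higher, with Tcrg-C2 called, and Trdc was 0.108, 0.308 and 0.275 against 0.354, 0.416 and 0.945 CP10K, the opposite direction to the gamma segments without passing.

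Ccl5 was higher in SIRT7-/- mice. It encodes the chemokine RANTES, made by memory and cytotoxic lymphocytes, and lies at chr11:83525778-83530518 on the minus strand, 37.1 Mb from Sirt7. Ccl5 in hepatocytes was also higher in SIRT7-/- mice, at 3.37 CP10K against 0.828 CP10K in wild-type mice. Whether its reads in the CD8-negative T cells came from other cells was not tested. In the CD8-negative T cells its level was 9.65, 11.6 and 9.77 CP10K in the wild-type livers and 22.0, 30.2 and 22.7 CP10K in the SIRT7-/- livers. All 3 SIRT7-/- mice were above all 3 wild-type mice, at 26.1 ± 5.74 CP10K (SD, n = 2) against 10.3 ± 1.09 (SD, n = 3). The log2 fold change was 1.32 (SE 0.20, limma adjusted p = 0.00353) over 5 mice and 1.26 (SE 0.19, limma adjusted p = 0.00622) over 6. Among Cxcr6-positive cells it was 8.15, 10.8 and 7.35 against 24.2, 30.0 and 4.53 CP10K, a log2 fold change of 1.63 over 5 mice (limma adjusted p = 0.000321). The 10 such cells of SIRT7-/- mouse 3 lay below the wild-type mice. It passed the test in 19 of 26 alternatives, including each in which 1 mouse was left out, with an adjusted p between 0.000129 and 0.825.

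Emp3, a membrane glycoprotein of the PMP22 family, was 0.708, 1.40 and 0.996 CP10K in the wild-type livers and 3.51, 3.68 and 1.49 CP10K in the SIRT7-/- livers. SIRT7-/- mouse 3 lay just above the highest wild-type mouse. The log2 fold change was 1.80 (SE 0.32, limma adjusted p = 0.0162) over 5 mice and 1.39 with adjusted p = 0.446 over 6 mice (limma). The adjusted p was over 0.05 without wild-type mouse 1 (0.1), wild-type mouse 3 (0.0762) or SIRT7-/- mouse 2 (0.0617). Gzma, the protease granzyme A, was read in 0, 0 and 1 UMIs in the wild-type livers and in 21, 67 and 0 UMIs in the SIRT7-/- mice. It was 0.318 and 0.879 CP10K in SIRT7-/- mice 1 and 2 (limma adjusted p = 0.0426) against 55.5 CP10K in NK cells. Gzma in hepatocytes was also higher in SIRT7-/- mice, at 0.876 CP10K against 0.151 CP10K in wild-type mice. Whether its reads in the CD8-negative T cells came from other cells was not tested. Without wild-type mouse 1 or 2 or SIRT7-/- mouse 2 it did not pass (limma adjusted p = 0.161, 0.0967 and 0.66).

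Cytotoxic genes did not move as a group. Of 14 tested 7 were higher and 7 lower in SIRT7-/- mice, 2 of them called (Ccl5 and Gzma, both higher), with a median log2 fold change of -0.02. The summed level was 36.3, 37.1 and 32.7 CP10K in the wild-type livers and 41.5, 51.7 and 54.8 CP10K in the SIRT7-/- livers, a difference carried by Ccl5. Nkg7, a granule membrane protein, was in fact lower, at 9.43, 9.82 and 8.22 against 6.02, 5.97 and 4.60 CP10K, and did not pass (log2 fold change -0.60, limma adjusted p = 0.416). Gzmb, granzyme B, overlapped between the genotypes at 0.479, 1.88 and 1.23 against 1.25, 1.77 and 3.07 CP10K.

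**Figure D4:**
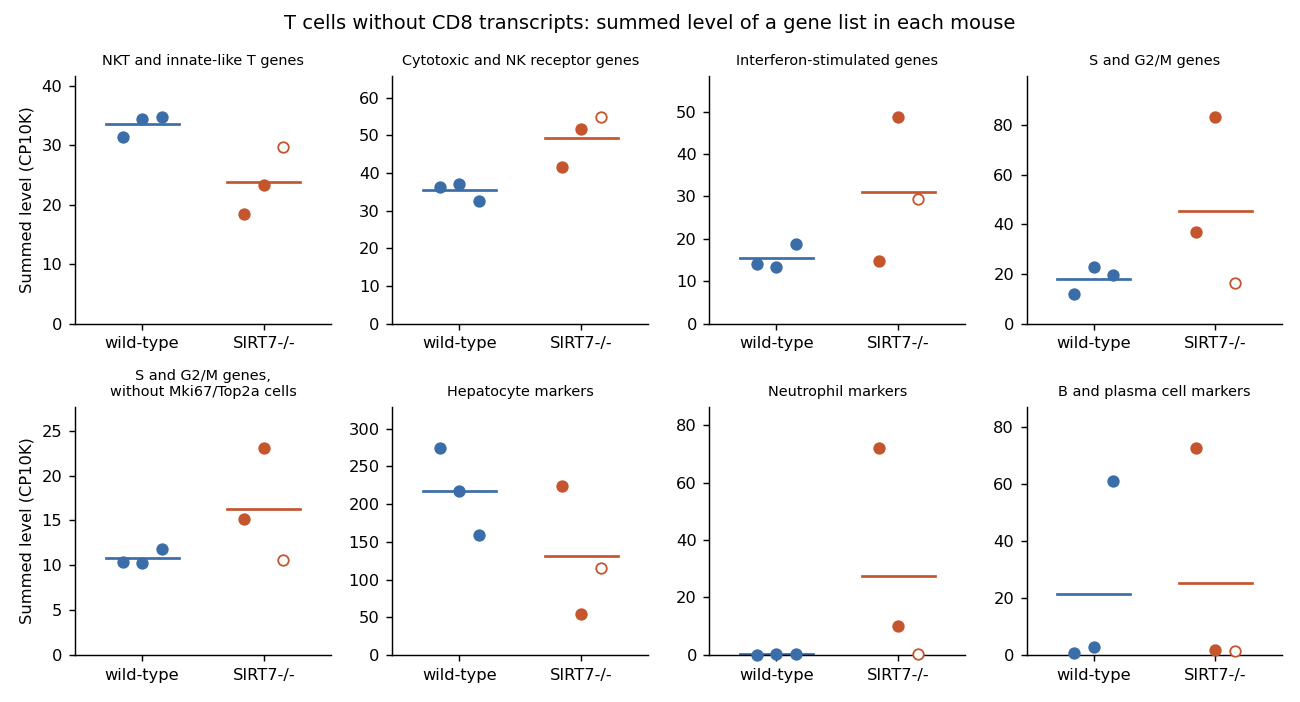
Summed CP10K of 8 gene lists in the CD8-negative T cells of each mouse (wild-type blue, SIRT7-/- orange, open circle SIRT7-/- mouse 3). NKT and innate-like genes are lower in all SIRT7-/- mice. S and G2/M genes reach 36.8 and 83.2 CP10K in SIRT7-/- mice 1 and 2, and 15.2 and 23.0 CP10K once cells with Mki67 or Top2a are left out. Hepatocyte, neutrophil and B or plasma cell genes are markers of other cells, and the source of their reads was not tested.

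Genes of the cell cycle were higher in SIRT7-/- mice 1 and 2, though none of the list passed the test. Of 20 tested S and G2/M genes 19 were higher, with a median log2 fold change of 1.68, 15 had an unadjusted p under 0.05 and the smallest adjusted p was 0.0894 (limma). In 14 of the 20 both SIRT7-/- mice lay above all wild-type mice, against 10.5% of all genes. Their sum was 12, 22.8 and 19.7 CP10K in the wild-type livers and 36.8, 83.2 and 16.3 CP10K in the SIRT7-/- livers, so that SIRT7-/- mouse 3 lay within the wild-type range. Cells with a UMI of Mki67 or Top2a numbered 1, 8 and 10 in the wild-type livers and 29, 103 and 1 in the SIRT7-/- mice. Without them the sum was 10.3, 10.2 and 11.8 against 15.2, 23.0 and 10.5 CP10K. Stmn1, a microtubule regulator of dividing cells, was 0.462, 1.53 and 1.12 against 3.48, 7.50 and 0.972 CP10K (limma adjusted p = 0.114).

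Outside the list, Hist1h2ap, a replication-dependent histone gene, was called higher. It was 0.270, 0.445 and 0.560 CP10K in the wild-type livers and 1.65, 3.80 and 0.0396 CP10K in the SIRT7-/- livers (log2 fold change 2.48, limma adjusted p = 0.00852 over 5 mice). SIRT7-/- mouse 3 lay below all wild-type mice. With Mki67- or Top2a-positive cells left out its log2 fold change was 1.70 (limma adjusted p = 0.666), and without SIRT7-/- mouse 2 it was 1.89 (limma adjusted p = 0.157). Tubb5, a beta tubulin, was 3.13, 4.01 and 4.22 against 6.43, 13.4 and 3.19 CP10K and did not pass (limma adjusted p = 0.0894).

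The helper, regulatory and polarisation lists held no called gene. Of 8 tested CD4 helper genes 6 were lower and 2 higher, of 10 regulatory T cell genes 6 lower and 4 higher, of 12 type 1 genes 6 each way, of 4 type 17 genes 3 higher and of 3 type 2 genes 3 lower. Cd4 itself was 0.458, 1.43 and 0.783 CP10K in the wild-type livers and 0.336, 1.20 and 1.49 CP10K in the SIRT7-/- livers, and Foxp3 was 0.0164, 0.246 and 0.245 against 0.0675, 0.0364 and 0.0396 CP10K. Both overlapped. Cxcr3, a chemokine receptor of type 1 cells, was 2.72, 2.91 and 2.14 against 1.40, 1.73 and 2.41 CP10K (limma adjusted p = 0.555). Ccr9, better known as a gut homing receptor, was 1.76, 2.21 and 2.35 against 1.19, 0.690 and 0.730 CP10K, lower in all 3 SIRT7-/- mice without passing (log2 fold change -1.16, limma adjusted p = 0.198). Among 11 naive and recirculation genes 6 were lower and 5 higher, and Satb1, a chromatin organiser of T cells, was 2.92, 3.23 and 3.81 against 2.80, 2.04 and 2.05 CP10K (limma adjusted p = 0.809).

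Signaling and stress lists were close to all genes or varied between mice. Of 14 genes of T cell receptor signaling 9 were lower and 5 higher with a median of -0.14, and of 6 inhibitory receptors 4 were lower. Of 12 tested genes of the integrated stress response and the endoplasmic reticulum, a pathway the study centred on, 9 were lower and 3 higher in SIRT7-/- mice, none was called or had an unadjusted p under 0.05, and the median was -0.35. Hspa5, the chaperone BiP, was 2.70, 3.12 and 3.76 against 2.53, 2.33 and 5.02 CP10K (limma adjusted p = 0.869), and Atf4 was 0.852, 1.15 and 1.34 against 1.33, 1.24 and 0.445 CP10K. Of 14 interferon-stimulated genes 13 were higher with a median of 0.49 and none was called (1 at unadjusted p under 0.05), and their sum was highest in SIRT7-/- mouse 2. It was 14.0, 13.4 and 18.8 CP10K in the wild-type livers and 14.8, 48.7 and 29.4 CP10K in the SIRT7-/- livers. Ifi27l2a alone was 3.70, 4.66 and 6.65 against 7.23, 27.4 and 14.3 CP10K, apart in all 6 mice but not past the test (limma adjusted p = 0.75). Of 83 ribosomal protein genes 61 were higher and 22 lower, with a median of 0.15. None was called, and 11 had an unadjusted p under 0.05 (limma). Both SIRT7-/- mice lay above all wild-type mice in 30 of the 83, against 10.5% of all genes, and below in 4, against 11.4%. The summed level overlapped, at 2306, 2161 and 2011 CP10K in the wild-type livers and 2458, 2255 and 2436 CP10K in the SIRT7-/- livers.

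Many of the other calls were genes of hepatocytes or neutrophils, or lay near Sirt7. Of the 15 lower genes 10 were at least 2 times higher in wild-type hepatocytes than in wild-type CD8-negative T cells, by 2.27 to 5.42 times (among them Cyp2c50, Cyp2c69, Cyp2c37, Cyp3a44, Mup9, Sult2a3, Apcs, Aldh1a1 and Pcyt2, which also lies near Sirt7), and these were lower in SIRT7-/- hepatocytes too. Cyp2c50, a cytochrome P450 of the liver, was 1.15, 2.16 and 1.95 CP10K in the wild-type livers and 0.183, 0.0177 and 0 CP10K in the SIRT7-/- livers (log2 fold change -3.79, limma adjusted p = 0.00161), beside 6.23 and 0.462 CP10K in wild-type and SIRT7-/- hepatocytes. Of these genes Aldh1a1 (limma adjusted p = 0.0804 without wild-type mouse 3), Apcs and Sult2a3 were lost when 1 mouse was left out, the latter both without wild-type mouse 1 (0.103 and 0.161), wild-type mouse 2 (0.0967 and 0.128) or SIRT7-/- mouse 2 (0.129 and 0.0955). All 12 tested hepatocyte markers were lower, with a median of -1.32 and none called. Their part in these calls was not tested.

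Retnlg and Ngp, granule or secreted proteins of neutrophils, were read in no wild-type CD8-negative T cell, though both were read in wild-type hepatocytes. Retnlg gave 147, 44 and 0 UMIs and Ngp 242, 97 and 0 UMIs in SIRT7-/- mice 1 to 3. Against a floor of 3 UMIs over the wild-type group they were at least 99.1-fold and 57.6-fold higher (limma adjusted p = 0.000226 and 0.0087), and in SIRT7-/- mouse 2 alone at least 34.3-fold and 12.3-fold. Retnlg passed without SIRT7-/- mouse 1 (limma adjusted p = 0.00463). Ngp did not pass without wild-type mouse 1 or 3 or SIRT7-/- mouse 1 (limma adjusted p = 0.0836, 0.0784 and 0.137). All 6 neutrophil markers were higher, and with 25 cells left out that held 5 or more neutrophil, immunoglobulin or hemoglobin UMIs the other 26 calls, all of those still tested, remained.

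Among the calls 5 lie within 10 Mb of Sirt7 on chromosome 11. Pcyt2, an enzyme of phosphatidylethanolamine synthesis, ends 0.000436 Mb from Sirt7 and was 1.21, 1.13 and 1.37 CP10K in the wild-type livers and 0.0308, 0.0613 and 0.0396 CP10K in the SIRT7-/- livers, beside 5.49 and 0.188 CP10K in wild-type and SIRT7-/- hepatocytes. Its log2 fold change was -3.76 (SE 0.39, limma adjusted p = 0.000226) over 5 mice and -3.78 (limma adjusted p = 0.00275) over 6. St6galnac2, a sialyltransferase, was at 0 in all wild-type mice and at 0.477, 1.27 and 1.19 CP10K in the SIRT7-/- livers, at least 32.2-fold higher over mice 1 and 2 and 17.6-fold in mouse 1 alone (limma adjusted p = 0.00178 over 5 mice). BC018473, annotated as antisense, was likewise at 0 against 0.763, 1.88 and 0.578 CP10K, at least 48.8-fold higher over mice 1 and 2 and 28.2-fold in mouse 1 alone (limma adjusted p = 0.000384 over 5 mice), and St6galnac1 was at 0 against 0.318, 0.293 and 0 CP10K (limma adjusted p = 0.0455). These 3 genes lie 3.84 to 3.92 Mb from Sirt7. Without SIRT7-/- mouse 2 St6galnac2 did not pass (limma adjusted p = 0.21). What part the region around the targeted gene had was not tested.

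The last higher calls were noncoding RNAs. Xist, which coats the inactive X chromosome, was 18.1, 21.4 and 23.0 CP10K in the wild-type livers and 38.2, 37.6 and 23.3 CP10K in the SIRT7-/- livers (log2 fold change 0.87, SE 0.16, limma adjusted p = 0.0277). It was present in every mouse, and SIRT7-/- mouse 3 lay just above the highest wild-type mouse. Without wild-type mouse 1 or 2 or SIRT7-/- mouse 2 it did not pass (limma adjusted p = 0.277, 0.187 and 0.0822). Gm42418 was 2.48, 3.64 and 5.88 against 12.2, 11.2 and 2.93 CP10K (limma adjusted p = 0.0277, and 0.111, 0.0967 and 0.124 without the same mice). AY036118 lies within it on the other strand of chromosome 17 and also passed (limma adjusted p = 0.0337). Whether the calls of this pair are separate was not tested. Lockd was 0.0488, 0.179 and 0.0908 against 0.921, 0.884 and 0.361 CP10K (limma adjusted p = 0.0162). In SIRT7-/- hepatocytes Gm42418 was also higher, at 13.9 against 4.29 CP10K in wild-type ones, and AY036118 at 0.421 against 0.0810 CP10K. Xist and Lockd were lower there. What part reads of other cells had in these calls was not tested. Neat1 was 1.48, 1.35 and 1.87 against 5.26, 3.11 and 8.64 CP10K, higher in all 3 SIRT7-/- mice but not past the test (limma adjusted p = 0.0867).

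CD8-negative T cells were next set beside the CD8 T cells of the same mouse, which met the same rule except for the CD8 reads. Over 5 mice with at least 10 cells of both kinds (SIRT7-/- mouse 3 not entered) no gene of 10814 passed (0.0%), with 1000 at an unadjusted p under 0.05. Over the 2 mice with at least 20 of both (SIRT7-/- mice 1 and 2) none of 10684 passed with limma (0.0%, 14 at an unadjusted p under 0.05), and limma voom on summed UMIs called 39. The number of CD8 T cells, 19, 15, 12, 30, 102 and 6, limits this comparison. In all 6 mice 4.21% of genes were higher and 0.989% lower in CD8-negative T cells, and the median log2 difference of all genes over 5 mice was 0.32, against which the values below are to be read.

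Cxcr6 was among the genes higher in all 6 mice. In CD8 T cells it was 4.06, 4.04 and 2.01 CP10K in the wild-type livers and 2.85, 3.32 and 3.26 CP10K in the SIRT7-/- livers, each below the CD8-negative T cells of the same mouse, with a log2 difference of 1.31 (SE 0.45, limma adjusted p = 0.508). Klrb1c was 0.215, 0.211 and 0.120 against 0.109, 0.176 and 0 CP10K in CD8 T cells (log2 difference 2.45, SE 0.49, limma adjusted p = 0.508). Il4, the cytokine of type 2 and NKT cells, was read in 0 of 184 CD8 T cells, which allows a share of up to 1.63% of cells with a UMI and sets no limit on cells that express it. In CD8-negative T cells it was 0.699, 0.432 and 0.255 CP10K in the wild-type livers and 0.361, 0.151 and 0.532 CP10K in the SIRT7-/- livers. Icos, a costimulatory receptor of helper and innate-like cells, was 1.16, 2.11 and 1.74 and 1.20, 1.29 and 0.732 CP10K in CD8-negative T cells. In CD8 T cells it was 0.245, 0.589 and 0.646 and 0.359, 0.371 and 0.426 CP10K (log2 difference 1.69, SE 0.41, limma adjusted p = 0.508).

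Helper, regulatory and gamma delta genes ran the same way. Cd40lg, Zbtb7b, which encodes the CD4 lineage factor ThPOK, Foxp3, Il2ra, Tnfrsf18, Zbtb16, Tbx21, Cxcr3, Maf, Rora, Txk, Tcrg-C1, Tcrg-C2 and Tcrg-C4 were all higher in CD8-negative T cells in 6 of 6 mice. All 6 tested gamma delta genes were higher with a median log2 difference of 2.07, 7 of 8 CD4 helper genes with 1.05, 10 of 12 NKT and innate-like genes with 0.96, 4 of 4 type 2 genes with 1.31 and 11 of 12 type 1 genes with 0.60. Over SIRT7-/- mice 1 and 2 alone the NKT and innate-like median was 0.03 and the type 1 median -0.09, while the others stayed above 0. The summed gamma delta genes were 5.85, 6.80 and 5.44 and 4.97, 3.70 and 6.64 CP10K in CD8-negative T cells, against 0.925, 1.31 and 2.62 and 1.58, 0.781 and 1.19 CP10K in CD8 T cells.

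Of 14 cytotoxic genes 10 were lower and 4 higher in CD8-negative T cells, with a median of -0.42 and none called. Ccl5 was 110, 108 and 58.8 CP10K in wild-type CD8 T cells and 93.7, 73.1 and 36.6 CP10K in SIRT7-/- ones, above the CD8-negative T cells in 6 of 6 mice (log2 difference -2.53, SE 0.51, limma adjusted p = 0.508). The summed cytotoxic genes were 142, 146 and 79.2 and 118, 120 and 66.7 CP10K in CD8 T cells, above the CD8-negative T cells of the same mouse in 6 of 6 mice. Runx3, the factor of the CD8 lineage, was 1.57, 1.67 and 1.68 and 1.17, 1.58 and 2.06 CP10K in CD8 T cells and 1.18, 1.10 and 1.26 and 0.805, 0.859 and 2.01 CP10K in CD8-negative T cells, lower in 6 of 6 mice. Klf2, a factor of recirculating cells, and Emp3 were also lower in 6 of 6, and of 20 S and G2/M genes 18 were lower with a median of -0.68.

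**Figure D5:**
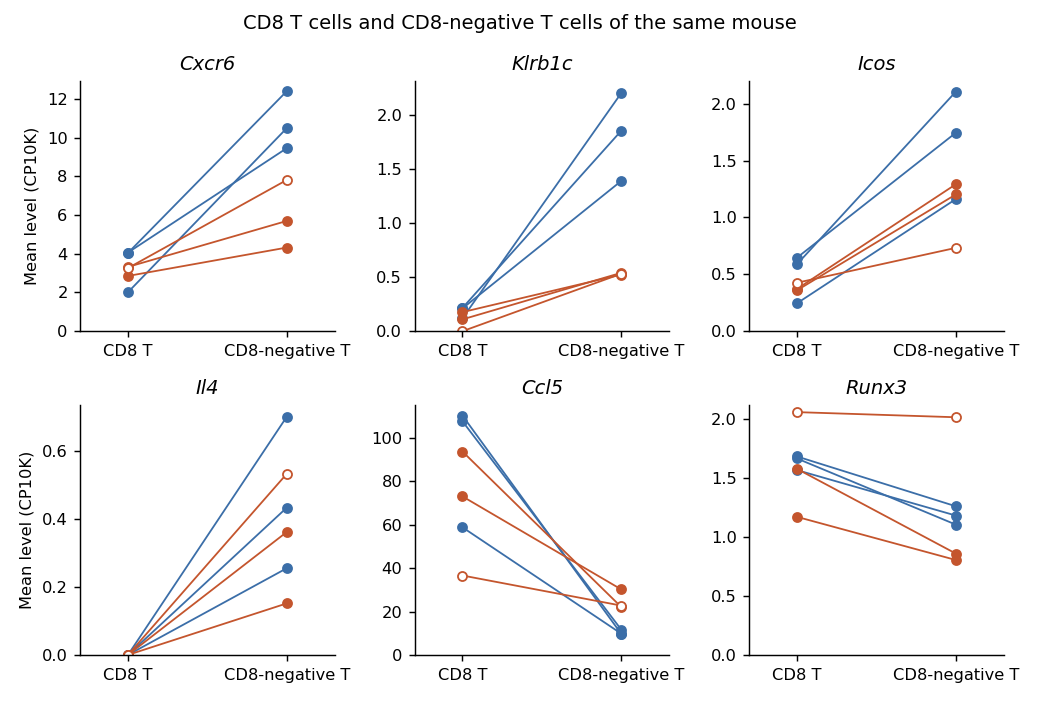
Mean CP10K of 6 genes in CD8 T cells and CD8-negative T cells, with a line joining the cell groups of each mouse (wild-type blue, SIRT7-/- orange, SIRT7-/- mouse 3 open). Lines rise toward the CD8-negative T cells for Cxcr6, Klrb1c, Icos and Il4 and fall for Ccl5 and Runx3 in all 6 mice.

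Whether a genotype difference was particular to the CD8-negative T cells was tested by the difference of the genotype effects in both kinds of T cell, over 5 mice with at least 10 cells of each. No gene of 10814 passed (0.0%), 422 had an unadjusted p under 0.05, and limma voom called 5. For Cxcr6 the difference was -1.04 (SE 0.89), for Klrb1c -1.40 (SE 0.87) and for Ccl5 1.42 (SE 0.92), each at limma adjusted p = 1. Among the genes with the smallest p were Pecam1, an adhesion molecule of endothelial and myeloid cells (3.80, SE 0.75), Ngp, Retnlg and Klrc1, the receptor NKG2A (-4.34), none past the test. The median difference of all genes was -0.14. Of the type 1 list 11 of 12 genes lay below 0, with a median of -1.29. The neutrophil genes, 6 of 6 above 0 with a median of 2.96, and the dendritic cell genes, 7 of 8 with 2.09, lay above the median of all genes. Their part was not tested.

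Within the CD8-negative T cells, those with a Cd4 UMI were set against the rest. There were 20, 36 and 17 such cells in the wild-type livers and 13, 70 and 4 in the SIRT7-/- mice, and the rest included cells in which Cd4 was missed. None of 10752 genes passed over 5 mice (0.0%, SIRT7-/- mouse 3 not entered), with 715 at an unadjusted p under 0.05 and 8 called by limma voom, and the median log2 difference of all genes was -0.28. Klrb1c was lower in Cd4-positive cells in 6 of 6 mice, at 1.41, 0.977 and 1.12 and 0, 0.0374 and 0 CP10K, against 1.91, 1.58 and 2.35 and 0.572, 0.674 and 0.767 CP10K in the rest. In the SIRT7-/- mice it was thus at or near 0 in Cd4-positive cells. Cxcr6 was also lower in 6 of 6, at 8.50, 8.57 and 10.2 and 1.95, 4.50 and 4.92 CP10K against 9.58, 14.2 and 10.5 and 4.47, 6.07 and 9.10 CP10K.

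Most genes of several lists were lower in Cd4-positive cells, as were most of all genes. That median depended on the scale, at 0.18 with limma voom and -0.05 with a pseudocount of 0.5. Of 14 cytotoxic genes 13 were lower in Cd4-positive cells with a median log2 difference of -0.87, of 12 type 1 genes 11 with -0.71, of 7 gamma delta genes 6 with -1.08 and of 12 NKT and innate-like genes 10 with -0.50. With limma voom these medians were -0.66, -0.32, -0.53 and -0.31. Txk, Trdc, Tcrg-C4, Ctsw, Klre1, Srgn and Isg15 were each lower in 6 of 6 mice, as were 2.53% of all genes, in groups as small as 13 and 4 Cd4-positive cells. Emp3 was higher in 6 of 6, as were 0.623% of all genes. Of 20 S and G2/M genes 16 were higher with a median of 0.51, which was -0.27 without cells over 3 times the median depth.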

How the data were processed

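The authors aligned reads of 10x 3′ libraries to mm10 with Cell Ranger 6.0.0 and, in Scanpy, removed cells with under 500 genes or over 5% mitochondrial reads and genes seen in under 3 cells. The deposited table holds natural log values, ln(CP10K + 1), for 16623 genes in 11610 cells. Mouse and genotype were read from the barcode ending. All 12961041 values above 0 gave whole UMIs within 0.02. The cells and the 31 gene lists were chosen with earlier results of these data known.

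Cells were selected by the rule in the report, and CP10K was averaged over the cells of a mouse. Genes averaging 0.05 CP10K or more were tested with limma 3.58.1 (R 4.3.3, trend and robust, Benjamini-Hochberg over all genes tested, threshold 0.05) on log2(mean CP10K + 0.05). The 11 genes of the rule were left out of every test. Mice with at least 20 cells entered, or with at least 10 of both kinds in the Cd4 comparison. Comparisons within a mouse used the difference between its cell groups. A minimum of 20 left the comparison with CD8 T cells 2 mice and the difference of genotype effects no wild-type mouse, so that a minimum of 10 was used for the second and given beside the first. Shares were tested by exact two-sided permutation over mice, with Wilson 95% intervals and Python 3.11.15 and scipy 1.17.1. Named genes were the list members, the markers and, in each direction, 10 genes by fold change among non-overlapping calls averaging 0.5 CP10K or more, filled by smallest p; the other calls were named after their values were seen, and some genes are not reported here. Genotypes have 3 mice each, of which 3 wild-type and 2 SIRT7-/- mice entered the main fit. The p-values rest on the mice entered in each test, and limma moderates the spread of a gene by that of all genes. The fitting code was tested on simulated data. No doublet caller was run, and leaving out 40 cells over 3 times the median depth was an alternative. Positions are GRCm38 (mm10).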

Additional observations from a re-analysis of the deposited data

How the results depend on the processing

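The main count of 28 genes called between the genotypes was 15 with a filter of 0.2 CP10K, 14 with summed UMIs, 124 with means of the deposited ln values, 9 in limma without trend and robust, 0 with limma voom, 5 with SIRT7-/- mouse 3 added at a minimum of 10 cells, 50 with at least 3 of the 4 CD3 genes and 60 without cells over 3 times the median UMIs. Of the alternatives chosen after seeing the data, it was 16 without the 5 exclusion genes, 0 in Cxcr6-negative cells, 11 with at least 3 CD3 genes at a minimum of 10 cells and 7 with the replicate block at that minimum. Leaving out 1 mouse each gave 15 to 230. The comparison with CD8 T cells called 16 genes with a pseudocount of 0.01 and 39 with voom, the Cd4 comparison 8 with voom, and the difference of genotype effects 5 with voom, against 0 in each case. All 28 genes kept their direction wherever they were tested. For 24 named genes 392 of 621 values kept their side of the threshold, 219 lost it, 10 gained it and none reversed. The causes of these changes were not tested.

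Replicate numbers are shared between the genotypes, but the numbers did not pair the mice (correlations of same-numbered deviations 0.0407, 0.0588 and -0.0728). With the replicate block 203 genes were called.

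Marker shares reversed in 6 of 13 markers (percentage points). Not thinned, Cd4 was -3.81, Ccr7 0.395 and Ifng -0.0325, and with at least 3 CD3 genes Ccr7 was 0.960. With 1 mouse left out Cd4 ran from -2.62 to 6.79 (-0.162 without wild-type mouse 1), Foxp3 from -0.838 to 0.207, Ccr7 from -1.25 to 0.398, Gzmb from -3.43 to 2.25 and Pdcd1 from -0.701 to 0.192. The share of CD8-negative cells differed by -18.7 to -8.82 points when 1 mouse was left out. With at least 3 CD3 genes the CD8 T cell comparison and the difference of genotype effects had too few mice, as had the former without SIRT7-/- mouse 1 or 2. Depth limits the shares of CD8-negative cells and the calls of low genes.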
